A study of Rattus norvegicus with 8 samples.

Results

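The 4 rat liver libraries whose labels include hexachlorobenzene (HCB) were compared with the 4 whose labels do not, with the atorvastatin label as a second factor. All 8 libraries of the series were used, and each was placed by its label. HCB is a chlorinated fungicide and persistent pollutant, and atorvastatin is a statin, a drug that inhibits cholesterol synthesis. The HCB-labelled set holds 2 libraries labelled HCB (100 mg/kg by gavage, 3 times a week over 30 days) and 2 labelled atorvastatin plus HCB. The unexposed set holds 2 libraries labelled vehicle control and 2 labelled atorvastatin alone. Atorvastatin was given as a daily 5 mg/kg in the drinking water. The labels also describe the water as 5 mg of drug in 20 mL for each rat daily, and this would be 31.25 mg/kg. According to the labels all animals were adult male Wistar rats that weighed 160 g at the start. No further age is given, and the livers were taken on day 37. The study assigned 20 rats to 4 groups of 5 and sequenced the livers of 2 per group, so each library is a separate animal, and all are whole liver tissue.

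Fetal liver makes blood as well as plasma proteins, and its hepatoblasts divide, express imprinted growth genes and secrete alpha-fetoprotein (Afp) besides albumin (Alb). Around birth blood formation moves to the bone marrow and hepatocytes take up urea synthesis and gluconeogenesis. At weaning they gain the enzymes of a carbohydrate diet, and at puberty the pulsed growth hormone of male rats switches on a set of male liver genes. The gene lists below follow this order, and the comparison is described as a difference between adult and fetal programmes of expression. An effect of HCB cannot be told apart from this difference, because every library with the one pattern carries the HCB label and every library with the other lacks it.

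Assigned reads ranged from 38.4 to 52.0 M (M, units of 1e6 reads) in the HCB-labelled libraries and from 29.4 to 43.8 M in the unexposed ones. Reads outside annotated exons made up 7.46% to 11.4% against 15.3% to 34.0%, the higher end in control 1 and atorvastatin 1. Genes with at least 1 read numbered 17674 to 18120 against 18945 to 19606. The unexposed libraries went against the label "male". The Y-linked helicase Ddx3 was at 96.7, 71.5, 72.3 and 64.1 CPM (counts per 1e6 reads of normalised library size) in the 4 HCB-labelled libraries and at 0.559, 0.0474, 0.144 and 0.415 CPM in the 4 unexposed ones, and the Y-linked demethylase Kdm5d at 27.4, 26.2, 24.9 and 25.1 against 0.229, 0.189, 0.383 and 0.457 CPM. With Eif2s3y, Uty and Ddx3y, which this table places on chromosome 13 and which overlapped between the sets, they summed to 136 to 217 CPM against 1.99 to 3.99 CPM. Xist was looked for too, but it was not among the genes tested and gives no value. The unexposed libraries also went against the label "adult" in holding Afp at 1.55% to 3.00% of assigned reads, against 0.00602% to 0.0120% in the HCB-labelled ones. The labels were kept as given, and the reason for either mismatch was not tested. The part of reads outside exons in the differences below was not tested. Liver identity was present in all 8, with Alb at 6.15% to 9.71% of assigned reads in the HCB-labelled and 6.50% to 10.3% in the unexposed libraries. In such bulk RNA, fewer cells of a type and less RNA per cell cannot be told apart.

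Promoters of a few genes on which the comparison turns are printed from RefSeq on GRCr8, from 250 bases before to 50 bases after the start of the gene, 5′ to 3′ on the gene's strand. Afp, Rup2, Ccnb2 and Alas2 stand for lists most of whose tested members were called in 1 direction, and Alb, not called itself, is shown as the neighbour of Afp. Capitals mark letters of a motif on either strand. Afp (chr14:17875596-17875895, minus strand), Alb (chr14:17906930-17907229, minus strand) and Rup2 (chr8:43551407-43551706, minus strand) hold the letters GTTAAT or their reverse complement ATTAAC, a short motif searched here among liver genes. Ccnb2 (chr8:79981609-79981908, minus strand), a mitotic cyclin, holds CCAAT or ATTGG, the motif of NF-Y, and TTTGAA or TTCAAA, a cell cycle homology region. Alas2 (chrX:22895200-22895499, plus strand), the erythroid enzyme of heme synthesis, holds AGATAA, searched on both strands like the rest, a motif of the GATA factors. Ccnb2 and Alas2 were picked after their values were seen.
Afp: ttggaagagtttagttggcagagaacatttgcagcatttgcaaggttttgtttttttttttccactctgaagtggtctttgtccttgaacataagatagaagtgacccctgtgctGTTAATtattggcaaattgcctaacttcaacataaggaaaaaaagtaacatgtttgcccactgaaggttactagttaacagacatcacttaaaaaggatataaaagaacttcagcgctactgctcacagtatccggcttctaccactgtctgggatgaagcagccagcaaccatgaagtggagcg
Alb: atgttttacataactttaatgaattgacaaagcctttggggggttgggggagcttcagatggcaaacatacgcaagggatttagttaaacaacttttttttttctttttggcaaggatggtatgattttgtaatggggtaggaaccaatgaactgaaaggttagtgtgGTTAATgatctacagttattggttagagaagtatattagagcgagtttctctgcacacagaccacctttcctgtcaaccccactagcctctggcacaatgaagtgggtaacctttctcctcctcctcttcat
Rup2: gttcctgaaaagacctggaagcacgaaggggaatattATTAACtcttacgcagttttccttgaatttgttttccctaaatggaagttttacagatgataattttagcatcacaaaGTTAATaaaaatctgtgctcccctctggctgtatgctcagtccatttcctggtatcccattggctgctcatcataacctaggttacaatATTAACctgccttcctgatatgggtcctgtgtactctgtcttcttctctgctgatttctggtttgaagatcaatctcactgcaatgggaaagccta
Ccnb2: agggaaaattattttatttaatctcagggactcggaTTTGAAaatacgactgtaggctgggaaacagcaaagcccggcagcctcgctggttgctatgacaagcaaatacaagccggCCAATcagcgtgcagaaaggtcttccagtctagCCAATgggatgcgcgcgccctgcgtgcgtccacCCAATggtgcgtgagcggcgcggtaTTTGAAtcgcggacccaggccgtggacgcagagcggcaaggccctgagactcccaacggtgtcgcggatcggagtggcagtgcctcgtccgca
Alas2: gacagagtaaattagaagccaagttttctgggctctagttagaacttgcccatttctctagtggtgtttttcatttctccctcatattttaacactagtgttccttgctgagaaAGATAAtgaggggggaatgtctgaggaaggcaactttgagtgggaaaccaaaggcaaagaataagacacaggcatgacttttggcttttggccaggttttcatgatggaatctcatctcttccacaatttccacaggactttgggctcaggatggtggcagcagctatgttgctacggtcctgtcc

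The neighbours Afp and Alb carry the motif at 135 and 82 bases before their starts, and Rup2 carries it at 3 places. A promoter was matched for 11497 genes tested, and GTTAAT in either direction was found in 4.91% of them. The share was 25.0% of 24 promoters of adult plasma proteins and 33.3% of 9 of male-predominant genes, but nearly the same in genes called at least 4-fold higher (7.77%) and at least 4-fold lower (7.07%). The pairing of CCAAT with TTTGAA in Ccnb2 was common among mitosis genes: CCAAT stood in 81.0% of their 21 promoters against 37.8% of all, and TTTGAA in 76.2% against 12.3%. TTTGAA also stood in 55.6% of the 9 male-predominant promoters, a list with 11 of 12 genes called higher, while 25 of 25 mitosis genes were called lower. Of 21 DNA replication promoters 66.7% held CCAAT and 4.76% held TTTGAA. The GATA motif AGATAA stood in 35.3% of 17 erythroid promoters and 33.3% of 15 neutrophil promoters, against 6.77% of all. These are matches of letters and show no binding.

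Of 16591 genes tested with edgeR's quasi-likelihood test, 7728 (46.6%) differed between the sets at an adjusted p under 0.05, averaged over the atorvastatin label. They comprised 3530 genes higher in the HCB-labelled libraries (21.3%) and 4198 lower (25.3%), and these shares are the background for every list below. Large differences were more often falls: 654 genes were at least 4-fold higher and 1701 at least 4-fold lower, and 118 were at least 64-fold higher against 253 lower. In 3622 genes (21.8%) all 4 HCB-labelled libraries lay above all 4 unexposed ones in CPM, and in 4142 (25%) all lay below. The median log2 difference over all genes was −0.11. Scaling to total counts moved it by −0.53 and changed the calls to 1498 higher and 6999 lower, so small differences are relative to the scaling.

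The difference was seen in both strata of the atorvastatin label, which share no library. Between HCB and control 2165 genes were higher (13%) and 2301 lower (13.9%), and between atorvastatin plus HCB and atorvastatin 2084 were higher (12.6%) and 2487 lower (15%). These counts lean on single libraries: between HCB and control 890 were higher and 1274 lower without control 1, 1400 and 1195 without HCB 1, and 1523 lower without control 2. Between atorvastatin plus HCB and atorvastatin 1089 and 1540 were left without atorvastatin 1, 1026 and 876 without atorvastatin plus HCB 1, and 1194 and 1310 without atorvastatin plus HCB 2. Both strata called 3293 genes in the same direction, 73.7% of the calls of the first and 72.0% of the second, and 1 gene in opposite directions. Across the 16591 genes, which are not independent replicates, the 2 log2 differences correlated at r = 0.86. The first principal component of log CPM separated the 2 sets and held 72.1% of the variance.

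**Figure D1:**
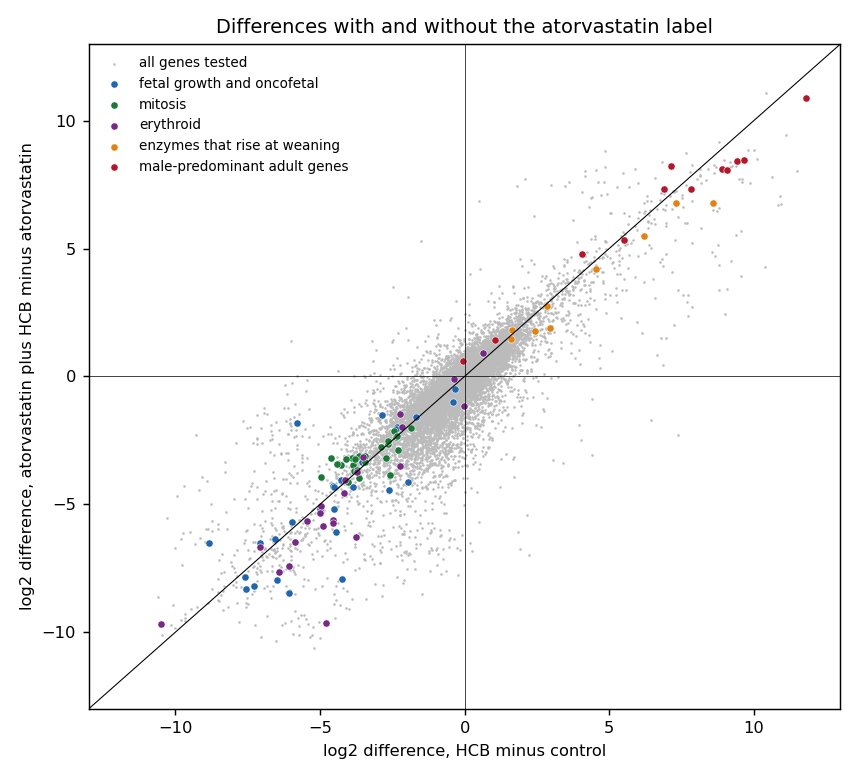
Log2 difference of each gene tested between HCB and control (x axis) and between atorvastatin plus HCB and atorvastatin (y axis), 1 grey point per gene, with the members of 5 lists in colour and a diagonal line of equal differences. Mitosis, erythroid and fetal growth genes lie at the lower left, and weaning and male genes at the upper right.

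Genes of fetal growth and oncofetal genes were far lower in the HCB-labelled libraries. Of 28 tested, 25 were lower and 0 higher, with a median log2 difference of −4.42, and Bex2 had too few reads. Members near 0 in the HCB-labelled libraries, such as Bex1, passed the count filter only through the unexposed ones. Such members could only be called lower, so the count and median are a description only. Afp (ENSRNOG00000002889, chromosome 14, 17573412 to 17591480), the main serum protein of the fetus, stood at 145, 70.1, 85.1 and 70.3 CPM in the HCB-labelled libraries, and at 11860, 29746, 11414 and 24173 CPM in the unexposed ones. Values by library are always given in the order HCB 1 and 2, atorvastatin plus HCB 1 and 2, and for the unexposed set control 1 and 2, atorvastatin 1 and 2. A value with ± after such levels is the log2 difference, HCB-labelled minus unexposed. Its standard error (SE) was worked back from the F statistic of the edgeR test. Every unexposed library was far above every HCB-labelled one, with control 1 and atorvastatin 1 the lower of their set, and Afp fell by 7.72 ± 0.54 on the log2 scale (SE; edgeR adjusted p = 1.87e-06). The imprinted noncoding RNA H19 was at 108, 53.7, 57.5 and 49.3 CPM against 17240, 13363, 18238 and 15362 CPM, a log2 difference of −7.93 ± 0.42, edgeR adjusted p = 2.34e-07. The insulin-like growth factor Igf2, its neighbour, was at 75.9, 29.8, 28.0 and 25.4 CPM against 8351, 8085, 7768 and 8103 CPM, a log2 difference of −7.75 ± 0.42, edgeR adjusted p = 3.06e-07. Among the 4 HCB-labelled libraries HCB 1 held most Afp, H19 and Igf2, and still lay below every unexposed library in each.

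Igf2bp2, an RNA-binding protein that binds the mRNA of Igf2, was at 0.665, 0.908, 0.602 and 0.990 CPM against 24.6, 26.4, 27.1 and 31.0 CPM (−5.09 ± 0.24, edgeR adjusted p = 9.12e-08), with no overlap of the sets. Bex1, a small adaptor protein of progenitor cells, was at 0.127, 0.160, 0.0501 and 0.0450 against 8.61, 11.5, 14.7 and 21.5 CPM (−7.29 ± 0.32, edgeR adjusted p = 6.8e-08). Other members, all chosen for mention after their values were seen, include the transcription factor Sall4 (−4.85 on the log2 scale), the glypican Gpc3 (−4.09), the imprinted adaptor Grb10 (−5.84) and the acute phase protein A2m of fetal rat serum (−6.79). The 3 members not called were Ptn (−0.71 ± 0.33, edgeR adjusted p = 0.102), Igf2bp3 (−0.41 ± 0.16, edgeR adjusted p = 0.0508) and Lin28a (−2.63 ± 1.04, edgeR adjusted p = 0.0572). Each was called lower when 1 library was left out: Ptn without atorvastatin 1 (edgeR adjusted p = 0.00698), Igf2bp3 without HCB 2 (0.0363) and Lin28a without HCB 1 (0.0358). Summed over the list, fetal growth genes made up 5.20% to 5.77% of assigned reads in the unexposed libraries and 0.0289% to 0.0437% in the HCB-labelled ones.

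**Figure D2:**
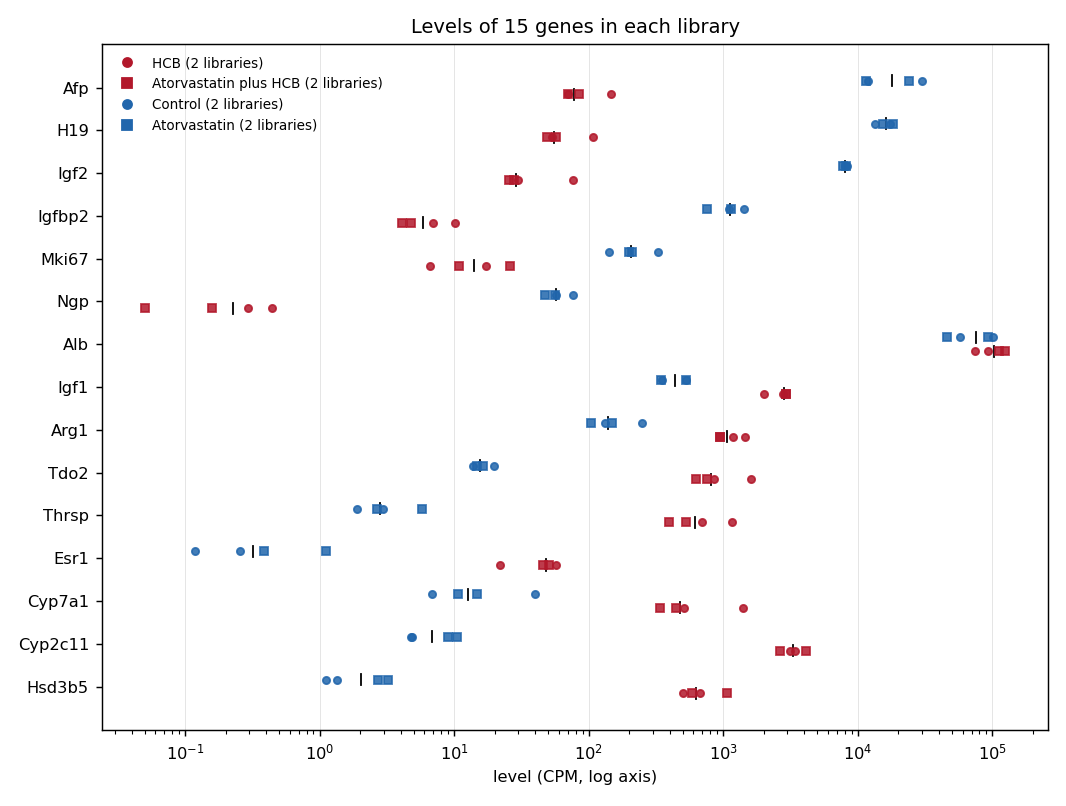
CPM (x axis, log scale) of 15 genes (y axis) in each library, red for HCB-labelled and blue for unexposed, circles without and squares with the atorvastatin label, black ticks at the median of each set of 4. Fetal, dividing cell and blood genes at the top are higher in blue, adult and male genes at the bottom are higher in red, and Alb between them overlaps.

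The genes tested in the imprinted region from Dlk1 to Dio3 on chromosome 6 (128410316 to 129286660, mRatBN7.2) were lower in the HCB-labelled libraries. The region encodes the fetal membrane protein Dlk1, the retrotransposon-like Rtl1, the deiodinase Dio3 and clusters of miRNA and snoRNA genes, and it was chosen after its values were seen. Of 131 gene rows in the region 104 were tested, and all 104 of these (35 miRNA genes, 66 snoRNA genes, Dlk1, Rtl1 and Dio3) were called lower, while the other 27 had too few reads. Dio3 was not called without control 1 (edgeR adjusted p = 0.0515), without HCB 1 (0.0527) or without atorvastatin plus HCB 1 (0.0616). Those tested passed the count filter through the unexposed libraries, so this count is a description only. Outside the region 59 of 176 snoRNA genes and 19 of 42 miRNA genes were lower, with 1 and 9 higher. Rtl1 was at 0.380, 0.320, 0.150 and 0.135 CPM in the HCB-labelled libraries and at 37.4, 13.4, 85.2 and 14.3 CPM in the unexposed ones. Mir770 was at 0, 0, 0 and 0.0450 CPM against 8.07, 1.63, 19.4 and 1.50 CPM. Control 1 and atorvastatin 1, the libraries with the largest share of reads outside exons, had the most of both, and the part of that share in this result was not tested.

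Mature miRNAs of the region were printed from RefSeq (GRCr8) for the 3 hairpin genes with the highest mean CPM in the unexposed libraries among those matched to it by symbol, and for the pair with 1 seed in common, with bases 2 to 8, the seed that pairs with target mRNAs, in capitals. The counts are of reads over the hairpin gene and do not measure the mature form.
rno-miR-770-5p: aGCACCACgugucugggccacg
rno-miR-1188-5p: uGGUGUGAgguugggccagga
rno-miR-493-5p: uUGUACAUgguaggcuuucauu
rno-miR-496-5p: aGGUUGUCcaugguguguuc
rno-miR-410-5p: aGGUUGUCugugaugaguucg

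Mir1188 stood at 0.0950, 0.0534, 0 and 0 CPM in the HCB-labelled and 3.81, 1.80, 8.12 and 1.50 CPM in the unexposed libraries. Mir493 was at 0.0633, 0, 0.0251 and 0 against 2.23, 0.545, 6.97 and 0.519 CPM. The 5p arms of miR-496 and miR-410 share the seed GGUUGUC, and their genes had 0 reads in all 4 HCB-labelled libraries. Mir496 reached 0.838, 0.734, 1.27 and 0.478 CPM and Mir410 0.686, 0.379, 0.623 and 0.249 CPM in the unexposed set. With a floor of 6 reads (3 read pairs) over the 4 libraries that had none, Mir496 was at least 21.2-fold and Mir410 at least 12.4-fold lower. In all, 49 of the 104 genes tested in the region had 0 reads in the HCB-labelled libraries.

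Enzymes that appear late in gestation were mostly higher in the HCB-labelled libraries: 5 of 9 rose and 1 fell, with a median log2 difference of 1.31. Argininosuccinate synthase (Ass1), which joins citrulline and aspartate in the urea cycle, was at 1999.6, 2314, 2854 and 1774 CPM against 194, 346, 136 and 229 CPM, a rise of 3.33 ± 0.32, edgeR adjusted p = 1.65e-05. Arginase (Arg1), which releases urea, was at 1448, 1188, 938 and 938 against 131, 251, 105 and 149 CPM (2.84 ± 0.27, edgeR adjusted p = 1.77e-05). Ugp2, which makes UDP-glucose for glycogen, rose by 1.72 ± 0.25, and none of the 3 had overlapping sets. The catalytic subunit of glucose 6-phosphatase (G6pc1) went the other way, at 343, 183, 688 and 272 CPM against 644, 1508, 659 and 813 CPM, with 1 HCB-labelled library inside the range of the unexposed ones, and a log2 difference of −1.33 ± 0.37, edgeR adjusted p = 0.0129. Its call was the only fall of the list and was lost without HCB 2 (edgeR adjusted p = 0.0643), without control 2 (0.0577) or without atorvastatin plus HCB 2 (0.0549).

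Enzymes of the days after birth divided. Of 6 tested, 3 were higher and 1 lower, with a median of 1.01. The tyrosine catabolic enzymes Hpd and Tat rose by 2.03 ± 0.23 and 1.53 ± 0.37 on the log2 scale without overlap of the sets. Serine dehydratase (Sds) was at 201, 45.4, 9.80 and 5.31 CPM against 6.73, 20.5, 1.92 and 7.95 CPM, a log2 difference of 1.89 ± 0.59, edgeR adjusted p = 0.0281. HCB 1 and HCB 2 lay above the unexposed range and both libraries of the combination inside it, and the call held only without HCB 2 or without atorvastatin plus HCB 2 among 8 settings that left out 1 library (edgeR adjusted p up to 0.196). Cpt1a, which passes fatty acids into mitochondria, was at 415, 274, 157 and 148 against 397, 394, 356 and 378 CPM (−0.73 ± 0.20, edgeR adjusted p = 0.0117), with HCB 1 above all unexposed libraries, and was not called without atorvastatin plus HCB 1 (edgeR adjusted p = 0.0561) or 2 (0.0654).

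All 9 enzymes of weaning that could be tested were higher, in both strata, and none of their sets overlapped. Their median log2 difference was 2.79, and Gpt had too few reads. Thrsp, a nuclear regulator of lipogenesis that responds to thyroid hormone and carbohydrate, was at 1151, 697, 525 and 392 CPM in the HCB-labelled libraries against 2.95, 1.89, 2.68 and 5.73 CPM. Its log2 difference was 7.67 ± 0.38, edgeR adjusted p = 1.51e-07. Tryptophan dioxygenase (Tdo2) was at 1617, 855, 756 and 623 CPM against 13.8, 19.7, 14.7 and 16.4 CPM (5.84 ± 0.31, edgeR adjusted p = 2.34e-07). The malic enzyme Me1, a source of NADPH for fatty acid synthesis, rose by 2.79 ± 0.21. The summed level of the list was 3386 to 5327 CPM in the HCB-labelled libraries and 421 to 1043 CPM in the unexposed ones, with atorvastatin 2 the highest of the latter.

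Genes of adult male liver had the highest median of all lists. Of 12 tested, 11 were higher and 0 lower, with a median log2 difference of 7.63. The list holds 1 member with 0 reads in the unexposed libraries, which passed the count filter only through the HCB-labelled ones. It could only be called higher, so the count is a description only. With this member set at its floor the median stayed at 7.63. Rup2 (ENSRNOG00000045799, chromosome 8, 35336764 to 35489103), a secreted protein of the three-finger family, stood at 1789, 1481, 2132 and 1389.5 CPM in the HCB-labelled libraries and 3.20, 2.84, 6.80 and 6.40 CPM in the unexposed ones (8.57 ± 0.32, edgeR adjusted p = 2.98e-08). Cyp2c11 (ENSRNOG00000052810, chromosome 1, 236762842 to 236799066), the steroid 16-alpha-hydroxylase of males, was at 3441, 3119.9, 4101 and 2641 against 4.85, 4.74, 10.5 and 8.93 CPM (8.93 ± 0.34, edgeR adjusted p = 3.53e-08), and Hsd3b5, a steroid dehydrogenase, at 667, 498, 1070.2 and 581 against 1.35, 1.11, 3.21 and 2.72 CPM (8.50 ± 0.33, edgeR adjusted p = 3.53e-08). In each of the 3 genes both atorvastatin libraries lay above both control libraries at this low level. The member not called was one of the 2 gene rows named Cyp2a2 (0.27 ± 0.23, edgeR adjusted p = 0.36), and reads of the Cyp2a, Cyp2c and Mup families may be shared between near copies. The same libraries had the Y-linked reads, and whether sex takes part in these values cannot be told apart from the HCB label.

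Genes of adult female liver did not move as one. Of 10 tested, 5 were higher and 3 lower, with a median of 0.82. The estrogen sulfotransferase Sult1e1 was at 1765, 987, 580.1 and 1113 CPM against 2.46, 2.27, 2.90 and 2.82 CPM (8.69 ± 0.38, edgeR adjusted p = 6.8e-08), and the retinoic acid hydroxylase Cyp2c7 at 1095, 1187, 926 and 1819 against 3.22, 2.49, 4.89 and 4.11 CPM (8.45 ± 0.35, edgeR adjusted p = 4.75e-08). Cyp2c12, the steroid sulfate hydroxylase of females, was at 806, 161, 314 and 185 against 9.88, 14.8, 7.90 and 23.0 CPM (4.65 ± 0.58, edgeR adjusted p = 0.000269). All 3 were thus high in the libraries that also held the male genes. Cux2, a repressor of male genes in female liver, was lower, at 0.823, 9.21, 1.70 and 6.05 CPM against 83.6, 70.7, 125 and 81.8 CPM (−4.33 ± 0.67, edgeR adjusted p = 0.000877), and Trim24 and Akr1b7 fell by 2.20 ± 0.27 and 6.66 ± 0.39. Without both libraries with most reads outside exons, a choice made after the data were seen, 3 members were higher and 3 lower.

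Adult plasma proteins were called higher in 19 of 30 cases and lower in 2, with a median log2 difference of 0.96. The antiproteinase Serpina1 was at a low level in both sets, 10.6, 8.97, 8.05 and 8.93 CPM against 1.75, 1.92, 1.05 and 1.58 CPM (2.55 ± 0.23, edgeR adjusted p = 1.21e-05). The corticosteroid carrier Serpina6 was at 428, 438, 265 and 475 CPM against 5.48, 8.24, 3.88 and 10.1 CPM (5.85 ± 0.37, edgeR adjusted p = 1.05e-06). Apoa2, of high density lipoprotein, was at 487, 332, 380.0 and 314 CPM against 16.5, 21.1, 24.6 and 28.5 CPM (4.08 ± 0.23, edgeR adjusted p = 3.63e-07). Apoa1, the main protein of the same particle, was lower, at 777, 358, 508 and 348 CPM against 2055, 3079, 2418 and 2964 CPM (−2.41 ± 0.32, edgeR adjusted p = 0.000151). Fetuin (Ahsg) was also lower, at 12825, 13183, 14865 and 13233 against 19875, 33123, 18314 and 29673 CPM (−0.90 ± 0.32, edgeR adjusted p = 0.0411), but of 8 settings that left out 1 library it kept its call only without control 1 or without atorvastatin 1 (edgeR adjusted p up to 0.161). Alb itself was at 74850, 92854, 124970 and 111740 CPM against 57170, 100800, 45740 and 93538 CPM, a log2 difference of 0.43 ± 0.39, edgeR adjusted p = 0.387, and the sets overlapped.

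Of 35 transcription factors of the hepatocyte 16 were higher and 3 lower, with a median of 0.44. Among the factors that define hepatocytes Hnf4a rose by 0.94 ± 0.22 on the log2 scale (not called under scaling to total counts, 0.40, edgeR adjusted p = 0.158), while Cebpa (0.10 ± 0.22, edgeR adjusted p = 0.736), chosen after its values were seen, was not called. The estrogen receptor Esr1 was at 21.7, 56.7, 45.6 and 51.0 CPM against 0.254, 0.118, 0.383 and 1.12 CPM (6.84 ± 0.45, edgeR adjusted p = 2.05e-06), and Zhx2, a repressor of Afp and H19 after birth, at 24.4, 37.5, 40.4 and 32.8 against 6.40, 7.22, 6.15 and 6.87 CPM (2.34 ± 0.20, edgeR adjusted p = 6.72e-06). Neither overlapped. Ppara, the fatty acid receptor, and Gata4 fell by 1.19 ± 0.17 and 0.44 ± 0.15, but the call of Gata4 held only without HCB 2 when 1 library was left out (edgeR adjusted p up to 0.157). Under scaling to total counts 7 factors were higher and 6 lower, so the split of this list depends on the scaling.

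**Figure D3:**
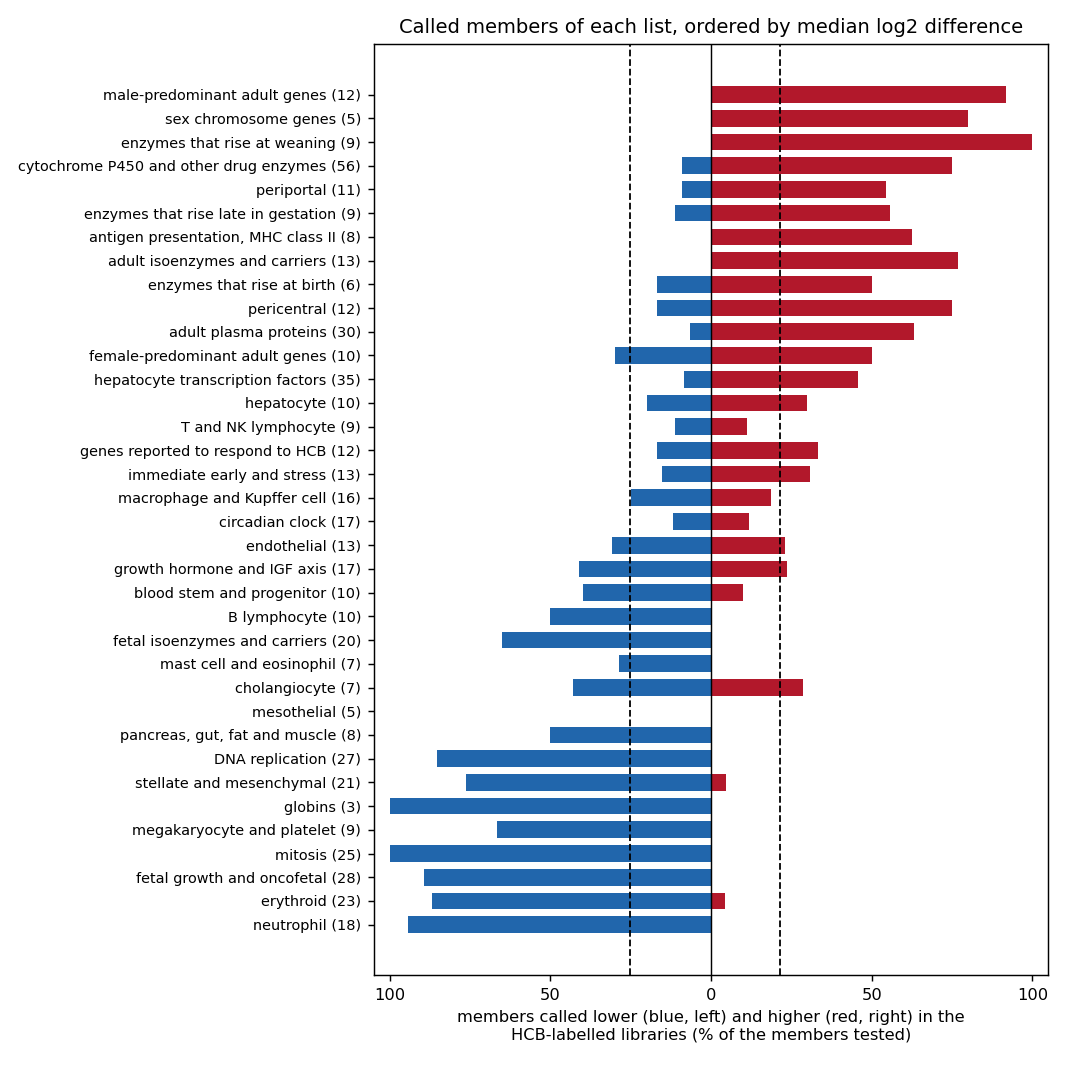
Share of the members tested of each gene list called higher (red, to the right) or lower (blue, to the left) in the HCB-labelled libraries, in percent, with the number tested. Dashed lines mark the shares over all genes tested, 21.3% higher and 25.3% lower. The weaning, male and adult isoenzyme lists lie far to the right and the mitosis, neutrophil, fetal growth and erythroid lists far to the left.

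Isoenzymes of fetal and adult liver were compared as pairs, as the adult share of the reads per kb of exon of both forms. In 6 of 6 pairs every HCB-labelled library had a higher adult share than every unexposed one. The pairs include glucose carriers and the serum proteins Alb and Afp, which are not isoenzymes. Gys2, Slc2a1 and Alb were not called themselves, so in their pairs only the other member was called. The hexokinase Hk2 of fetal liver was at 1.46, 1.87, 2.11 and 1.82 against 3.25, 3.34, 2.39 and 3.24 CPM (−0.75 ± 0.28, edgeR adjusted p = 0.0435). When 1 library was left out Hk2 kept its call only without HCB 2 or without atorvastatin 1 (edgeR adjusted p up to 0.146). The liver pyruvate kinase Pklr made up 92.4% to 96.5% of Pklr plus Pkm in the HCB-labelled libraries and 65.3% to 77.0% in the unexposed ones. Alb made up 99.75% to 99.92% against 72.1% to 78.6% of Alb plus Afp.

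In the remaining pairs the adult form prevailed in both sets. The shares were 96.1% to 97.7% against 88.2% to 95.1% for the glycogen synthases (Gys2 over Gys1), and 98.0% to 99.2% against 94.5% to 94.9% for the phosphorylases (Pygl over Pygb). For the glucose carriers (Slc2a2 over Slc2a1) they were 96.8% to 98.5% against 92.9% to 95.3%, and for the methionine adenosyltransferases (Mat1a over Mat2a) 99.0% to 99.4% against 97.2% to 98.0%. Beyond the pairs, 10 of 13 adult forms were higher and 0 lower (median 1.13), and 13 of 20 fetal forms lower and 0 higher (median −1.02). The summed level of the fetal forms nevertheless overlapped, at 428 to 535 CPM in the HCB-labelled and 473 to 586 CPM in the unexposed libraries (log2 ratio −0.09). That of the adult forms did not, at 10170 to 11562 against 4131 to 5448 CPM. The fructose carrier Slc2a5 rose by 3.89 ± 0.36 and the arginine carrier Slc7a2 by 1.38 ± 0.20, while the neuronal glucose carrier Slc2a3, the lactate dehydrogenase subunit Ldhb and hexokinase Hk1 fell by 3.22 ± 0.39, 1.57 ± 0.22 and 1.58 ± 0.22.

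**Figure D4:**
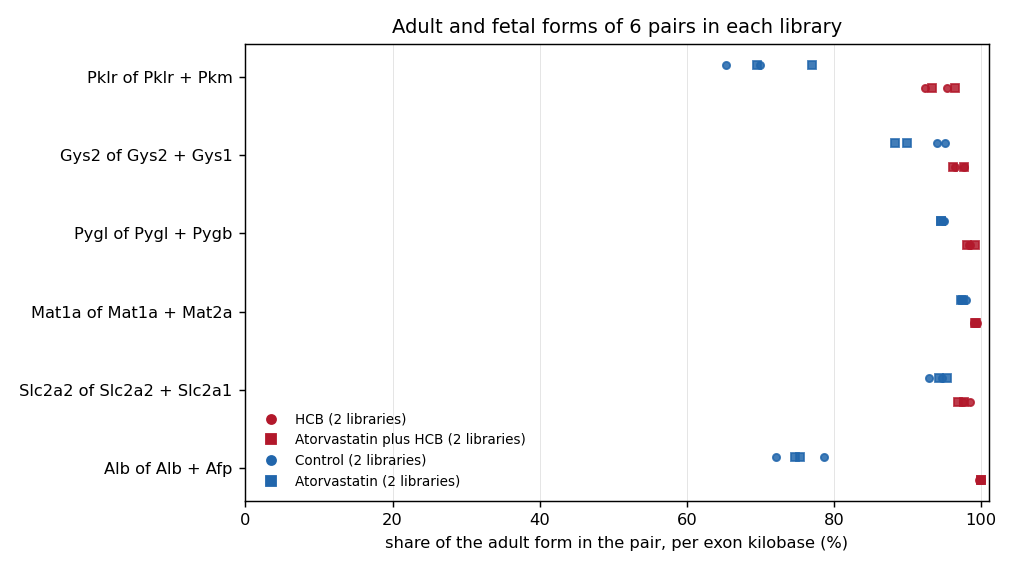
Adult share (percent of reads per kb of both forms, x axis) for 6 pairs of fetal and adult forms (y axis) in each library, red for HCB-labelled and blue for unexposed, circles without and squares with the atorvastatin label. Red lies to the right of blue in every pair, and the widest gaps are those of Pklr over Pkm and of Alb over Afp.

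Cytochrome P450s and other drug enzymes were higher in 42 of 56 cases and lower in 5, with a median of 1.73. The list summed to 24662 to 30078 CPM in the HCB-labelled libraries and to 6580 to 10428 CPM in the unexposed ones. Cyp3a9 was at 277, 100, 131 and 158 CPM against 0.432, 0.710, 0.814 and 0.581 CPM (8.02 ± 0.40, edgeR adjusted p = 1.86e-07). The glutathione transferase Gstm2 was at 960.1, 987, 1036 and 1134 CPM against 20.6, 21.0, 11.998 and 34.2 CPM (5.55 ± 0.35, edgeR adjusted p = 1.04e-06). Neither overlapped between the sets. The members that were lower include the transferase Gsta3 (13.7, 13.6, 12.3 and 19.5 against 97.4, 109.5, 79.5 and 103 CPM; −2.72 ± 0.20, edgeR adjusted p = 2.47e-06), whose family may share reads.

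Genes known to respond to HCB, or to the receptors it acts on, in rat liver did not move together: 4 of 12 were higher and 2 lower, with a median of 0.12, and Ahrr had too few reads. Cyp1a2, a target of the dioxin receptor, was at 879, 1045, 1222 and 1074 CPM against 32.3, 43.7, 22.9 and 69.1 CPM (4.65 ± 0.36, edgeR adjusted p = 4.04e-06). Cyp1a1, the more inducible target of the same receptor, was at 1.33, 2.51, 0.902 and 2.74 CPM against 4.80, 6.58, 1.15 and 4.82 CPM (−1.14 ± 0.48, edgeR adjusted p = 0.0718). The sets of Cyp1a1 overlapped and those of Cyp1a2 were far apart, and Cyp1a1 was called lower without atorvastatin 1 (edgeR adjusted p = 0.00994), without atorvastatin plus HCB 2 (0.031) or under scaling to total counts (0.0148). Cyp2b1, induced through the receptor CAR, was lower, at 4.94, 16.2, 6.87 and 44.6 CPM against 77.0, 104, 66.6 and 48.0 CPM (−2.12 ± 0.55, edgeR adjusted p = 0.0124), with atorvastatin plus HCB 2 just under the unexposed range. It was not called without HCB 1 or without any 1 of the 4 unexposed libraries (edgeR adjusted p = 0.06 to 0.123). Nqo1, a quinone reductase, rose by 2.59 ± 0.27 and the first enzyme of heme synthesis, Alas1, by 1.19 ± 0.23, while heme oxygenase Hmox1 fell by 1.88 ± 0.19. Urod, the decarboxylase whose inhibition marks HCB porphyria, stood at 41.4, 35.3, 31.6 and 31.8 CPM against 31.0, 40.2, 29.7 and 30.2 CPM (0.09 ± 0.16, edgeR adjusted p = 0.643). With library sizes taken without the 50 highest genes it was called lower (−0.43, edgeR adjusted p = 0.0371). The preneoplastic marker Gstp1 was at 17.2, 13.8, 13.99 and 15.8 against 12.6, 16.5, 8.86 and 17.03 CPM (0.15 ± 0.23, edgeR adjusted p = 0.618).

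The growth hormone and IGF axis moved in both directions. Of 17 genes 4 were higher and 7 lower, with a median of −0.17. Igf1, the IGF of postnatal growth, was at 2018, 2760.5, 2914 and 2945 CPM against 347, 524, 345 and 532 CPM (2.60 ± 0.28, edgeR adjusted p = 3.5e-05). The growth hormone receptor Ghr was at 879, 642, 630 and 675 CPM against 111.4, 145, 127 and 151 CPM (2.40 ± 0.22, edgeR adjusted p = 1.23e-05). Igfals, the subunit that holds IGFs in the blood, rose by 3.20 ± 0.31. In contrast the fetal binding protein Igfbp2 was at 10.2, 7.00, 4.76 and 4.09 CPM against 1425, 1094, 758 and 1143 CPM (−7.47 ± 0.31, edgeR adjusted p = 5.07e-08). Igfbp1, high in the fetus and in fasting, was at 44.8, 18.9, 30.3 and 33.5 CPM against 1322, 1572, 805 and 830.1 CPM (−5.09 ± 0.32, edgeR adjusted p = 9.09e-07). The receptor Igf1r, scarce on adult hepatocytes, was at 4.50, 5.21, 6.99 and 6.12 against 18.3, 15.1, 16.4 and 19.3 CPM (−1.61 ± 0.18, edgeR adjusted p = 5.01e-05), so that ligand and receptor moved in opposite directions.

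Genes of both zones of the lobule were more often higher than lower. Of 12 pericentral genes 9 were higher and 2 lower (median 0.96), and of 11 periportal genes 6 were higher and 1 lower (median 1.38). The glutamate carrier Slc1a2 of pericentral hepatocytes was at 22.7, 38.3, 21.5 and 42.5 CPM against 0.508, 0.853, 0.766 and 0.498 CPM (5.57 ± 0.34, edgeR adjusted p = 7.26e-07). Ornithine aminotransferase (Oat), of the same cells, was at 805, 344, 337 and 174 CPM against 20.7, 28.9, 10.7 and 17.1 CPM (4.37 ± 0.36, edgeR adjusted p = 6.06e-06). Lgr5, a receptor of pericentral WNT signalling, was lower, at 1.55, 2.56, 1.35 and 1.96 against 2.69, 5.09, 4.05 and 4.96 CPM (−1.18 ± 0.31, edgeR adjusted p = 0.0102), as was the carrier Slc13a3 (−1.14 ± 0.17, edgeR adjusted p = 0.000351). Lgr5 was not called without control 2 (edgeR adjusted p = 0.0557) or without atorvastatin plus HCB 1 (0.0516). Periportal histidase (Hal) was at 146, 138, 158 and 144 CPM against 29.4, 46.7, 27.7 and 30.0 CPM (2.14 ± 0.19, edgeR adjusted p = 9.47e-06), and the glycine decarboxylase Gldc, lower by 0.55 ± 0.19, overlapped between the sets and kept its call only without HCB 1, control 1 or atorvastatin 1 (edgeR adjusted p up to 0.177). Under scaling to total counts the periportal split became 6 higher and 4 lower.

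Genes of cell division were lower in the HCB-labelled libraries. All 25 mitosis genes tested fell (median −3.39), each with no overlap of the sets and in both strata, and Foxm1 had too few reads. Mki67 (ENSRNOG00000028137, chromosome 1, 190496319 to 190522762), a marker of dividing cells, was at 6.62, 17.2, 10.9 and 26.1 CPM against 141, 324, 211 and 200.2 CPM (−3.88 ± 0.42, edgeR adjusted p = 7.54e-05). The centromere protein Cenpf was at 0.760, 1.07, 2.18 and 1.75 CPM against 20.8, 36.7, 36.6 and 24.0 CPM (−4.45 ± 0.27, edgeR adjusted p = 7.66e-07). Aurora kinase B (Aurkb) and cyclin A2 (Ccna2) fell by 3.83 ± 0.31 and 4.08 ± 0.33. The sum of the list ran from 377 CPM in control 1 to 897 CPM in control 2 among the unexposed libraries, and from 45.4 to 88.6 CPM in the HCB-labelled ones. Ccnb2, whose promoter is printed above, was at 1.65, 0.854, 1.38 and 0.945 CPM against 6.30, 20.5, 11.4 and 12.2 CPM (−3.39 ± 0.38, edgeR adjusted p = 5.84e-05).

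DNA replication genes fell less, with 23 of 27 lower, 0 higher and a median of −1.60. Their summed level was 120 to 274 CPM in the HCB-labelled and 338 to 721 CPM in the unexposed libraries. E2f8, a repressor among the E2F factors, was at 0.380, 0.935, 0.451 and 1.01 CPM against 7.44, 13.3, 12.5 and 8.35 CPM (−3.88 ± 0.38, edgeR adjusted p = 1.91e-05). DNA ligase 1 (Lig1) was at 4.81, 7.96, 5.61 and 9.74 CPM against 18.2, 33.4, 26.8 and 25.8 CPM (−1.89 ± 0.27, edgeR adjusted p = 0.000239). The loading factor Cdc45 fell in both of the gene rows with this name. Pcna, the sliding clamp (chosen after its values were seen), overlapped between the sets, at 20.5, 24.0, 13.4 and 21.8 CPM against 18.1, 49.8, 20.4 and 39.7 CPM (−0.69 ± 0.33, edgeR adjusted p = 0.104). It was called lower without control 1 (edgeR adjusted p = 0.0182) and under scaling to total counts (0.00629). Between HCB and control 10 of the 27 were lower, and between atorvastatin plus HCB and atorvastatin 17.

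**Figure D5:**
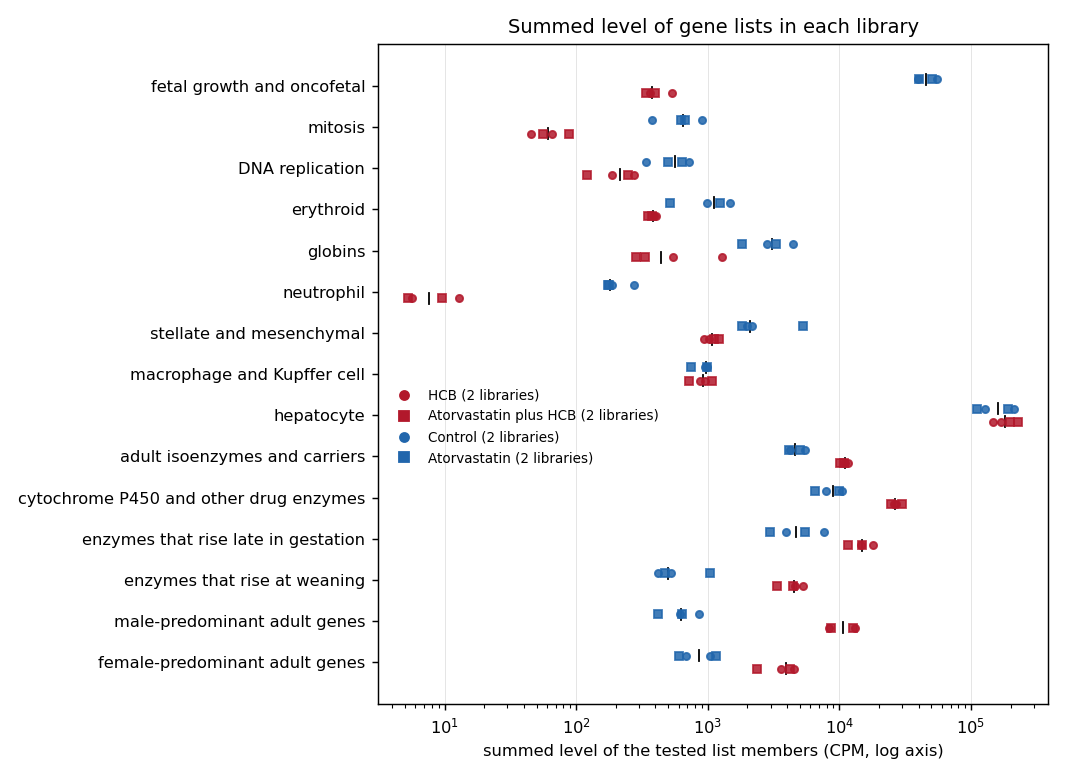
Summed CPM (x axis, log scale) of the members tested of 15 gene lists (y axis) in each library, red for HCB-labelled and blue for unexposed, circles without and squares with the atorvastatin label, black ticks at the median of each set of 4. Fetal growth, mitosis, replication, erythroid, globin, neutrophil and stellate lists are lower in red, macrophage and hepatocyte lists overlap, and the remaining lists, of adult isoenzymes and of drug, late gestation, weaning, male and female genes, are higher in red.

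Most erythroid and neutrophil genes tested were lower in the HCB-labelled libraries. Of 23 erythroid genes 20 were lower and 1 higher, with a median of −5.02. The Rhesus-associated glycoprotein Rhag was at 0.127, 0.107, 0.100 and 0.0450 CPM against 10.4, 22.1, 12.5 and 2.76 CPM (−6.88 ± 0.62, edgeR adjusted p = 1.53e-05), and Hemgn, a nuclear protein of erythroblasts, at 1.46, 0.908, 0.551 and 0.405 against 31.3, 72.0, 37.5 and 10.4 CPM (−5.55 ± 0.49, edgeR adjusted p = 2.14e-05). Atorvastatin 2 was the lowest unexposed library in both and still above every HCB-labelled one. Members near 0 in the HCB-labelled libraries, such as Rhag and Gfi1b, passed the count filter only through the unexposed ones. They could only be called lower, so the count of the list is a description only. Gfi1b, a repressor needed for erythroid and megakaryocyte maturation and chosen after its values were seen, had 0 reads in the HCB-labelled libraries and 3.48, 5.40, 3.86 and 1.25 CPM in the others, at least 89.3-fold lower. Fech, which completes heme in all cells, was the member that rose, by 0.77 ± 0.19 on the log2 scale, and it was not called under scaling to total counts (0.24, edgeR adjusted p = 0.34).

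Alas2, the erythroid form of the first heme enzyme, fell from 72.1, 106, 85.9 and 36.2 CPM in the unexposed libraries to 28.1, 9.77, 5.26 and 5.53 CPM (−2.87 ± 0.37, edgeR adjusted p = 0.000237), while its liver form Alas1 rose as given above. The 3 globins tested fell: Hba-a1 was at 1148, 503, 297 and 258 CPM against 2589.5, 4135, 3076 and 1698 CPM (−2.57 ± 0.35, edgeR adjusted p = 0.000182), its copies share reads, and HCB 1 was the highest of the HCB-labelled libraries. The embryonic globins Hbz, Hbe1, Hbe2 and Hbg1 had too few reads to be tested.

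Neutrophil granule genes fell in 17 of 18 cases and rose in 0. Their median was −6.36, or −5.46 with the members at 0 reads set at their floor. Camp, S100a8 and the 2 members at 0 reads passed the count filter only through the unexposed libraries. Such members could only be called lower, so the count and median are a description only. Ngp (ENSRNOG00000024330, chromosome 8, 110394203 to 110397570), a granule protein, was at 0.443, 0.294, 0.0501 and 0.157 CPM against 57.6, 75.8, 47.2 and 56.1 CPM (−8.19 ± 0.29, edgeR adjusted p = 2.98e-08), the antimicrobial peptide Camp at 0.253, 0.107, 0.0501 and 0.0900 against 14.7, 21.9, 14.5 and 14.5 CPM (−7.15 ± 0.33, edgeR adjusted p = 9.12e-08), and the calprotectin subunit S100a8 at 0.253, 0.107, 0.150 and 0.225 against 11.9, 20.7, 10.01 and 14.8 CPM (−6.27 ± 0.35, edgeR adjusted p = 4.36e-07). No set overlapped in any of the 3. The neutrophil defensins Np4 and RatNP-3b were among the 10 largest falls of all genes, with means of 29.4 ± 11.2 and 35.5 ± 9.47 CPM in the unexposed and 0.137 ± 0.206 and 0.213 ± 0.168 CPM in the HCB-labelled libraries (SD, n = 4). Of 9 megakaryocyte genes 6 were lower and 0 higher, platelet factor Pf4 by 2.31 ± 0.39. Of 10 stem and progenitor genes 4 were lower and 1 higher: the progenitor factor Myb fell by 3.89 ± 0.39, and the stem cell factor receptor Kit rose by 0.75 ± 0.23. Kit was not called without atorvastatin 1 (edgeR adjusted p = 0.0667), without atorvastatin plus HCB 2 (0.0841) or under scaling to total counts (0.425).

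Of 7 mast cell and eosinophil genes 2 were lower and 0 higher. Lymphocyte genes were near their limit of detection. Of 10 B cell genes 5 were lower and 0 higher, among them Rag1, the recombinase of precursor lymphocytes, at 0, 0.0534, 0.100 and 0.225 CPM against 3.50, 2.6996, 2.44 and 2.04 CPM (−5.18 ± 0.54, edgeR adjusted p = 3.2e-05). Of 9 T and NK cell genes 1 was higher, perforin (Prf1, 0.96 ± 0.29, edgeR adjusted p = 0.0181), and 1 lower, Nkg7 (−1.29 ± 0.30, edgeR adjusted p = 0.00509). Prf1 was not called without HCB 2, control 2, atorvastatin 1 or atorvastatin plus HCB 2 (edgeR adjusted p = 0.0543 to 0.063). All 6 immunoglobulin V genes tested were higher in the HCB-labelled libraries, with a median of 5.88, and were looked at after their values were seen. Rag1 and the V genes thus differed in opposite directions, but Rag1 passed the count filter only through the unexposed libraries.

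Resident macrophages gave no common direction, with 3 of 16 genes higher, 4 lower and a median of −0.01. Their summed level overlapped, at 721 to 1080 CPM in the HCB-labelled and 739 to 987 CPM in the unexposed libraries. Vsig4, a complement receptor of mature Kupffer cells, was at 48.8, 33.8, 25.9 and 44.0 CPM against 3.33, 4.67, 2.71 and 4.78 CPM (3.29 ± 0.27, edgeR adjusted p = 5.83e-06). Clec4f, a lectin of rodent Kupffer cells, rose by 1.34 ± 0.26. Lysozyme (Lyz2) was lower, at 32.3, 13.2, 14.2 and 24.7 against 57.8, 94.2, 88.2 and 55.6 CPM (−1.82 ± 0.31, edgeR adjusted p = 0.000974), as was the scavenger receptor Marco (−1.48 ± 0.35, edgeR adjusted p = 0.00645). MHC class II genes rose in 5 of 8 cases and fell in 0 (median 1.29), with the invariant chain Cd74 at 103, 97.4, 106 and 136 CPM against 30.3, 27.9, 14.1 and 52.9 CPM (1.82 ± 0.33, edgeR adjusted p = 0.00158) and the class II chain RT1-Da higher by 2.14 ± 0.37. Under scaling to total counts 2 macrophage genes were higher and 9 lower, and 4 class II genes higher and 1 lower.

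Endothelial genes were higher in 3 of 13 cases and lower in 4, with a median of −0.16. Clec4g, a lectin of sinusoidal endothelium, was at 19.5, 32.3, 38.2 and 41.0 CPM against 5.00, 4.50, 6.97 and 7.06 CPM (2.47 ± 0.20, edgeR adjusted p = 5.14e-06), while the hyaluronan receptor Stab2 of the same cells was at 152, 155, 173 and 188 CPM against 414, 426, 344 and 412 CPM (−1.26 ± 0.18, edgeR adjusted p = 0.000282). The sets of both genes were apart, in opposite directions. Kdr rose by 0.49 ± 0.17 but differed by −0.04 under scaling to total counts, where 1 member was higher and 8 lower. When 1 library was left out Kdr was called only without HCB 2 or without atorvastatin 2 (edgeR adjusted p up to 0.12). Of 7 cholangiocyte genes 2 were higher and 3 lower, with Sox9, a factor of the ductal plate, at 1.14, 1.44, 1.80 and 2.79 CPM against 7.95, 6.96, 6.51 and 7.89 CPM (−2.08 ± 0.25, edgeR adjusted p = 7.42e-05).

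Stellate and mesenchymal genes were lower in 16 of 21 cases and higher in 1, with a median of −1.63. The fibrillar collagen Col5a1 was at 16.6, 25.5, 36.1 and 35.3 CPM against 108, 99.6, 110.96 and 167 CPM (−2.13 ± 0.20, edgeR adjusted p = 1.64e-05). Fibrillin (Fbn1) was at 31.2, 30.5, 38.4 and 41.0 CPM against 110.4, 146, 101 and 199 CPM (−1.99 ± 0.22, edgeR adjusted p = 5.33e-05). Reelin (Reln), a marker of stellate cells, was at 115, 148, 190 and 159 CPM against 387, 451, 353 and 436 CPM (−1.42 ± 0.20, edgeR adjusted p = 0.00022). Rgs5, of pericytes, was the member that rose, by 2.13 ± 0.31. Atorvastatin 2 stood apart, with a list sum of 5329 CPM against 1828 to 2181 CPM in the other unexposed libraries and 940.3 to 1220 CPM in the HCB-labelled ones. It also held the most of the 5 mesothelial genes, 64.9 CPM against 3.16 to 16.1 CPM in its set, none of which was called. Without atorvastatin 2 the list still had 15 lower members.

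Beyond the lists, the largest rises and falls by the naming rule included genes outside these groups. LOC298116, an alpha-2u-globulin gene of the Mup cluster on chromosome 5, reached 31299, 17188, 22057 and 19216 CPM against 37.8, 36.0, 66.0 and 61.9 CPM (8.85 ± 0.42, edgeR adjusted p = 1.17e-07), and near copies may share its reads. The dehydrogenase Dhrs7l1 was at 885, 295, 965 and 276 against 0.762, 0.379, 1.34 and 1.33 CPM (9.44 ± 0.63, edgeR adjusted p = 3.24e-06), and the glucuronosyltransferase Ugt2b at 3447, 2682, 3419 and 3551 against 3.88, 4.59, 11.4 and 9.93 CPM (8.92 ± 0.32, edgeR adjusted p = 2.98e-08). Dhrs7l1 differed widely between replicates of the same HCB-labelled group, and Ugt2b little. Among the falls were the thyrotropin receptor Tshr, at 0.127, 0, 0.0501 and 0 CPM against 15.8, 8.95, 7.81 and 10.3 CPM (−8.02 ± 0.57, edgeR adjusted p = 2.28e-06), and Mogat3, of triglyceride synthesis, at 0.190, 0.107, 0.301 and 0.135 against 27.1, 51.5, 37.7 and 36.5 CPM (−7.73 ± 0.35, edgeR adjusted p = 8.34e-08). The trefoil peptide Tff3 and Adh1-ps1, named as a pseudogene, fell by 7.67 ± 0.47 and 7.68 ± 0.24.

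Clock and stress genes were mixed. Of 17 clock genes 2 were higher (Cry1 and Clock) and 2 lower (Per1 and Per3), with a median of −0.07 and no gene whose sets did not overlap. Per3 was at 38.3, 42.5, 2.08 and 16.3 CPM against 69.0, 70.5, 77.1 and 40.5 CPM (−1.73 ± 0.50, edgeR adjusted p = 0.0205), lowest in atorvastatin plus HCB 1, and the labels give no hour of killing. None of the 4 calls was firm: each but that of Cry1 was lost in 5 or 6 of 8 settings that left out 1 library, Clock with an edgeR adjusted p up to 0.104, Per1 up to 0.0978 and Per3 up to 0.175, and Cry1 was lost under scaling to total counts (0.0674). Of 13 immediate early and stress genes 4 were higher and 2 lower (median 0.11), with the chaperone Hsp90aa1 up by 1.72 ± 0.26. Egr1 was at 8.11, 8.60, 9.12 and 61.0 CPM against 116, 37.5, 96.3 and 136 CPM (−2.46 ± 0.56, edgeR adjusted p = 0.00656), and atorvastatin plus HCB 2 lay inside the unexposed range. It was not called without control 1, atorvastatin 1 or atorvastatin 2 (edgeR adjusted p = 0.0631 to 0.0895). Genes of pancreas, gut, fat and muscle were at low levels, with 4 of 8 lower and the fatty acid carrier Fabp4 at 1.87, 0.481, 1.25 and 1.21 CPM against 10.9, 13.3, 7.81 and 29.3 CPM (−3.65 ± 0.49, edgeR adjusted p = 0.000273).

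The second factor gave no call in the main edgeR setting. The interaction of both labels, the test of whether the HCB-labelled difference depends on atorvastatin, called 0 genes (0%) at an adjusted p under 0.05 with edgeR, with 391 at an unadjusted p under 0.05 and 5 called by DESeq2. The average difference by atorvastatin label called 0 genes (0%) with edgeR, with 601 at an unadjusted p under 0.05 and 12 called by DESeq2. Other edgeR settings also gave calls: 70 for the interaction and 140 for the atorvastatin label without the count filter, and 5 and 9 without atorvastatin 1. The smallest interaction p was that of the calcium pump Atp2b2, at 8.17, 9.21, 47.7 and 33.9 CPM in the HCB-labelled libraries against 91.4, 91.3, 101 and 77.7 CPM. Both libraries of HCB alone were thus lower than both of the combination, with an interaction of 2.26 ± 0.35 (SE; edgeR adjusted p = 0.784).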

How the data were processed

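RNA of 8 rat livers was sequenced, 2 libraries in each of 4 groups, and placed by label. The deposited counts are whole numbers of reads for 30562 Ensembl genes, of which 4367 have no symbol, and 0 columns went unused. The submitters' processing notes name fastp 0.23.4 for trimming and STAR 2.7.10b for alignment, and DESeq2 1.42.1 with R 4.3.2 for the authors' own testing. Exon reads were summed by featureCounts 2.0.6 with the annotation of Ensembl 111 for mRatBN7.2, per the file headers, and the command sets neither strand nor read pairs nor multimapping. Sense and antisense genes that overlap therefore share reads. Near-identical genes (globins, Cyp2a, Cyp2b, Cyp2c, Gsta, Mup and Y-linked families) may share or lose reads and are uncertain.

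These counts went into edgeR 4.0.16 under R 4.3.3 (TMM scaling, filterByExpr on the 4 groups, robust quasi-likelihood test) in 1 model of 4 groups with 4 residual degrees of freedom. The contrasts were the HCB-labelled minus unexposed difference averaged over the atorvastatin label, the same within each stratum, the interaction, and the average by atorvastatin label. Benjamini-Hochberg adjustment ran over the 16591 genes tested, and a gene was called at an adjusted p under 0.05. Levels are CPM on normalised library size. Each SE is the absolute log2 difference divided by the square root of the F statistic, and is approximate for genes near 0 reads. Log CPM values, used for the principal components and for the deviations between libraries, add a prior count of 2. The log2 differences are those of the edgeR fit and do not use it. A fold against a set with 0 reads is a bound from a floor of 6 reads over its libraries, and floors cover counting error only. Gene lists are described by counts called and medians, with no set test. A permutation test planned for the summed list levels was not run, since the lists were not independent of these data.

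The members and lists were chosen with earlier results of these data known. Genes were named by a rule: 18 fixed genes, the 10 largest rises and 10 largest falls with no overlap and a higher set of at least 10 CPM, up to 3 members called in each direction per list, the isoenzyme pairs, and the smallest interaction p. Genes beyond the rule (among them Ddx3y, Sall4, Gpc3, Grb10, A2m, Rtl1, Mir770, Cebpa, Pcna, Gfi1b, Alas2 and Ccnb2) were chosen after their values were seen. Some genes the rule names, and the isoenzyme pairs with them, are not reported here. Promoters and mature miRNAs are RefSeq's (GRCr8) and were matched by symbol or name. The alternatives were other size factors, DESeq2 1.42.0, other filters, an additive model, a replicate block, no robust estimation, halved counts, libraries sized without blood genes or without the 50 highest genes, each stratum alone, and each library left out. Removing chromosome Y genes, the blood lists, or both libraries with most reads outside exons was chosen after the data were seen. The steps were tested on simulated data. Data were handled with pandas 2.3.3 in Python 3.11.15 and, in R, version 1.17.8 of data.table, and figures drawn with matplotlib 3.10.9.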

Additional observations from a re-analysis of the deposited data

Results flagged for a closer look

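Within a set of 4 libraries, 1 library lay far from the other 3 in 22 of 342 sets tested, and chance alone marks about 1 in 20 sets. HCB 1 was that library in 7 and control 2 in 6, and control 1 in 0. HCB 1 was high in the fetal genes H19 (107.9 CPM against 49.33 to 57.48 in the rest of the HCB-labelled set) and Igf2 (75.92 against 25.42 to 29.8). It was also high in the neutrophil gene Np4 (0.4432 against 0 to 0.05341 CPM), in the glutaminase Gls2 (488.1 against 231.7 to 270.4 CPM), in the Y-linked Uty (40.18 against 18.31 to 20.61 CPM) and in the sum of the sex chromosome list (217.4 against 135.6 to 149 CPM), and low in Igfals (214.8 against 406.1 to 420.6 CPM).

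Control 2 was above the rest of the unexposed set in Camp (21.91 against 14.49 to 14.65 CPM), the neutrophil sum (274.8 against 174.6 to 186.3 CPM), Cdc45 (4.12 against 3.066 to 3.156 CPM), Dlk1 (11.82 against 5.434 to 6.188 CPM), Hal (46.75 against 27.73 to 29.97 CPM) and Urod (40.21 against 29.72 to 30.95 CPM). Atorvastatin 1 was low in Hk2 (2.395 against 3.24 to 3.339 CPM), Stab2 (344.4 against 411.9 to 425.6 CPM) and the macrophage sum (739.0 against 949.7 to 986.6 CPM). Atorvastatin 2 was high in Col5a1 (166.6 against 99.56 to 110.96 CPM) and in the stellate and mesenchymal sum (5329 against 1828 to 2181 CPM). In the HCB-labelled set, atorvastatin plus HCB 1 was high in Pygl (466.2 against 240.7 to 254.7 CPM), atorvastatin plus HCB 2 in Egr1 (61.0 against 8.105 to 9.124 CPM) and in Mir770 (0.04498 CPM against 0 in the others, where any read would stand apart, so this value says nothing about the library), and HCB 2 was low in Ugt2b (2682 against 3419 to 3551 CPM).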

How the results depend on the processing

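Of 153 genes named, 140 were called, and 109 of these kept the call in each of 25 alternative settings. Leaving out 1 library lost the call of 19 genes at least once. The direction turned for Kdr, to −0.03574 with total counts and −0.03808 with library sizes taken without the 50 highest genes, and for Urod under the latter, to −0.4269. Scaling to total counts changed the counts of genes higher and lower from 3530 and 4198 to 1498 and 6999 in the average comparison, from 2165 to 1041 higher between HCB and control, and from 2084 and 2487 to 821 and 4706 between atorvastatin plus HCB and atorvastatin. Without the 50 highest genes the same pairs were 1574 and 7475, 1066 and 4303, and 944 and 5017. Fewer libraries gave fewer calls: 1868 and 2221 from HCB and control alone, and 2325 and 2494 from the atorvastatin pair alone. Without both libraries with most reads outside exons, a setting chosen after the data were seen, they were 2163 and 2480, with 912 and 1196, and 905 and 1242, in the strata. Leaving out 1 library gave 2697 to 3508 higher and 3038 to 3971 lower in the average comparison. It gave 890 to 2274 (lowest without control 1) and 1195 to 2354 (lowest without HCB 1) between HCB and control. Between atorvastatin plus HCB and atorvastatin it gave 1026 to 2387 and 876 to 2511, both lowest without atorvastatin plus HCB 1. The interaction called 0 genes, 0 to 5 with 1 library left out, 5 with DESeq2 and 70 without a filter. The atorvastatin label called 0 genes, 0 to 9 with 1 library left out, 12 with DESeq2 and 140 without a filter. For both, the highest count with 1 library left out was without atorvastatin 1, and the cause was not tested.

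Total counts moved the log2 ratio of summed levels from −6.844 to −7.354 for fetal growth, −3.331 to −3.821 for mitosis, −1.468 to −2.001 for erythroid genes, −4.606 to −5.109 for neutrophils and −0.015 to −0.522 for macrophages. The ratio went from 0.197 to −0.288 for hepatocyte markers, whose sets overlap, 1.214 to 0.707 for adult isoenzymes, 1.628 to 1.135 for drug enzymes, 1.566 to 1.099 for late gestation, 2.849 to 2.354 for weaning, 4.081 to 3.581 for male genes, 2.087 to 1.612 for female genes and 5.756 to 5.199 for sex chromosome genes. The median of all genes moved by −0.53 under that scaling.

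With the replicate number as a block the average comparison called 3485 higher and 4063 lower, 3 named genes lost the call and 2 gained one. Same-numbered libraries deviated together at r = 0.269 between control and atorvastatin, and at −0.0509 to 0.0545 in the other pairs of groups. In log CPM, same-numbered control and atorvastatin libraries correlated at 0.9775 and 0.9732, and the other pairs of unexposed libraries at 0.9596 to 0.9698. Whether the numbers pair the samples was not tested further. With 2 animals a group, genes near the threshold of reads, such as lymphocyte genes, could differ by amounts not detectable at this depth.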
